A study of Mus musculus with 6 samples.

Results

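ATP-binding cassette (ABC) transporters are membrane pumps that use ATP to move lipids, drugs, bile constituents, peptides and metabolites, and a few soluble members act in translation instead. The genes described here are those whose symbol in the probe annotation is Abc, a subfamily letter from a to g and a digit, other than Abcc2, Abcc3, Abcg5, Abcg8, Abca1 and Abcd3. That rule gave 42 of the 19938 genes measured through a probe set with a single symbol: 15 of subfamily ABCA, 9 of ABCB, 8 of ABCC, 2 of ABCD, 1 of ABCE, 3 of ABCF and 4 of ABCG. Their signals were compared in whole ileum, the last stretch of the small intestine, on Affymetrix mouse gene arrays with 1 array per mouse. The 3 mice labelled Gata6 KO carried Villin-CreERT2, a tamoxifen-activated Cre recombinase driven by the Villin promoter of intestinal epithelium, together with GATA6 flox/flox alleles. The 3 control mice carried Villin-CreERT2 without the floxed alleles. Both groups were given tamoxifen (100 mg/ml) for 5 days from an age of 6 to 8 weeks, and ileum was collected 28 days later, at 10 to 12 weeks. Strain and sex are not given in the labels.

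In the intestine, ABC pumps of the apical membrane return drugs, sterols and conjugates to the lumen, and pumps of the basolateral membrane pass them to the blood. ABCA proteins mostly move lipids, ABCB and ABCC proteins include the multidrug exporters and the mitochondrial transporters, and ABCD proteins sit in peroxisomes and lysosomes. ABCE and ABCF proteins lack membrane segments and work on ribosomes, and ABCG proteins export sterols, urate and drugs.

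The arrays as a whole limit what can be said of any member. Gata6 itself read 6.94, 6.81 and 6.86 log2 units on the KO-labelled arrays and 6.31, 6.33 and 6.50 on the control arrays, so the signal of the targeted gene does not bear the label out (log2 fold change 0.49, SE 0.08, limma adjusted p = 0.0162). Whether its probe set lies inside the floxed part is unknown here, and signal from outside it would check nothing. Control replicate 3 read 2.31 for Xist and 5.30 for the Y-linked gene Eif2s3y, against 7.39 to 7.81 and 0.27 to 0.62 on the other 5 arrays, which are the signals of a male and of females. Control replicate 1 read 10.96 for the colon carbonic anhydrase Car1, against 5.68 and 6.87 on the other control arrays. All 3 KO-labelled arrays read higher still, at 12.20, 12.18 and 12.14. The calls that either array decides are given with and without it, as are the log2 fold changes of members above the array medians that it turns round or moves by over 1.5 times.

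Most of the 42 genes differed little between the groups, and 5 of them passed the threshold, a limma adjusted p under 0.05 over all genes. Abca12, Abcb6, Abcc1 and Abcb1a rose in the KO-labelled arrays, and Abcb10 fell. The called share of 11.9% stands beside 8.24% of all genes tested, the share that rose, 9.52%, beside 4.99%, and the share that fell, 2.38%, beside 3.25%. These counts depend on the rule. Of the family members it leaves out, Abcc2, Abcg5 and Abcg8 fell by 2.94, 2.28 and 2.25, Abcc3 rose by 0.87, and Abca1 and Abcd3 did not pass. Members and the gene lists set beside them below were chosen with earlier results of these data known, so their shares are descriptive. The median log2 fold change of the 42 genes was 0.08, against 0.00 over all genes (computed as -0.0043). That median was not steady: it was 0.0187 without control replicate 3, 0.0310 without KO-labelled replicate 2 and 0.0508 without KO-labelled replicate 3, and 0.0540 without control replicate 1. It was 0.14 with each array centred on its median, where all genes had 0.05, and 0.21 over the 28 members among brighter genes, where all such genes had 0.06. A positive log2 fold change was found for 24 of the 42, beside 9758 of all 19938 genes. The KO-labelled and control arrays did not overlap for 12 genes, or 28.6%, beside 29.3% of all genes, so that count is at the background. The KO-labelled arrays were the higher ones, without overlap, for 8 of the 42 members, beside 16.8% of all genes. They were the lower ones for 4 of the 42, beside 12.6% of all genes. Over all genes 995 were called higher and 648 lower, or 1562 higher and 565 lower with arrays centred, where 5 members were higher and 1 lower. An unadjusted p under 0.05 was found for 13 genes, or 31.0%, beside 24.7% of all genes. Among the 42 only Abca12 differed by more than 1 log2 unit, and 23 genes differed by less than 0.2. Both group means of 14 members lay below the medians of the arrays, 3.33 to 3.44, where a true signal is not shown; none of those 14 was called.

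**Figure D1:**
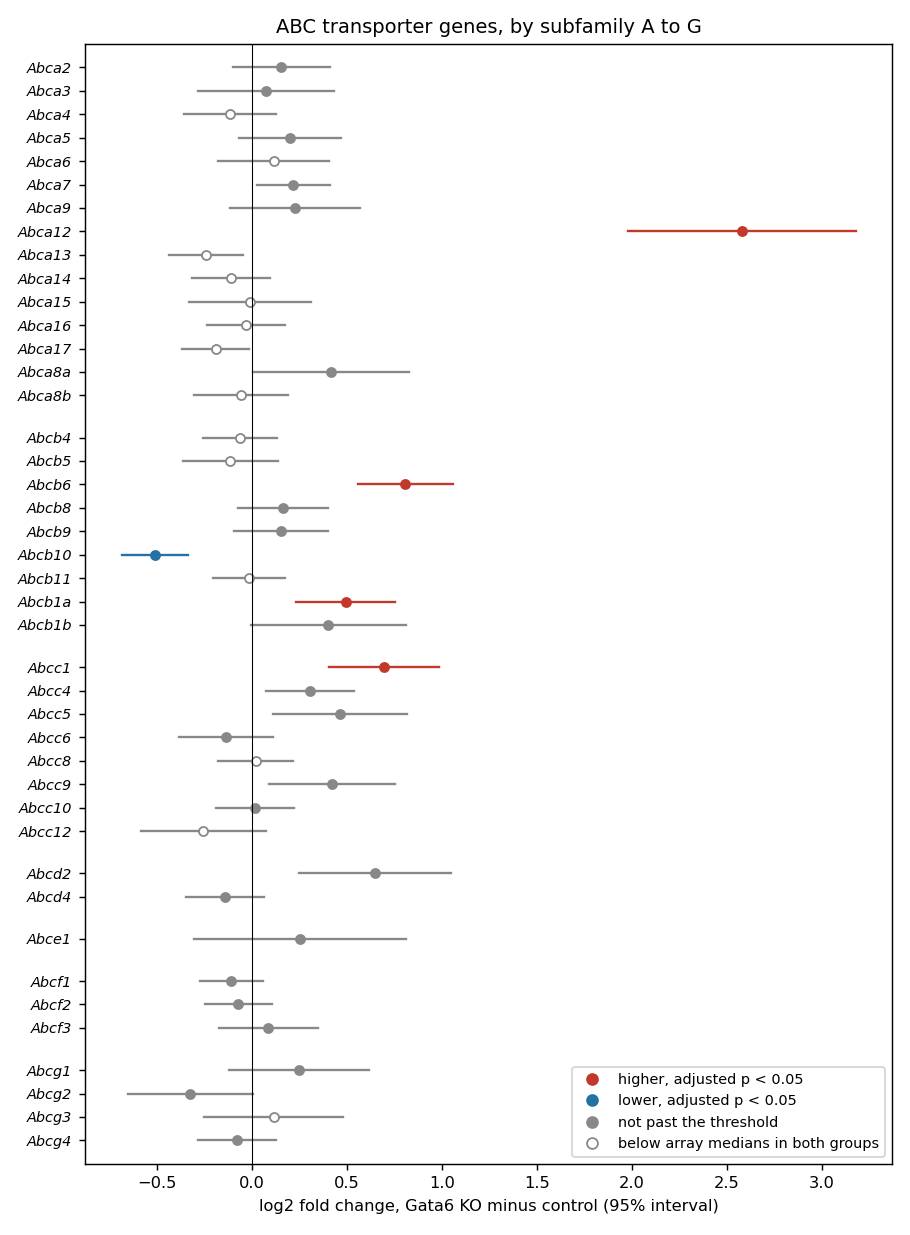
Log2 fold change of each of the 42 ABC genes, Gata6 KO minus control, with its 95% interval from limma; red points rose, the blue point fell, grey points did not pass the threshold, and open points had both group means below the array medians. Abca12 stands at 2.58, and all the others lie between -0.51 and 0.81.

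How many members passed depended on single arrays, and so did the count over all genes. In fits that left out 1 array, the count of higher members was 4 without KO-labelled replicate 1, 2 without KO-labelled replicate 2, 2 without KO-labelled replicate 3, 5 without control replicate 1, 2 without control replicate 2 and 2 without control replicate 3. The count of lower members was 1 in each of the 6. Over all genes the same fits, in that order, called 567, 320, 397, 630, 806 and 393 higher, against 995 with all 6 arrays. Fewer calls among the members thus came with fewer calls over all genes. Abca12, Abcb6 and Abcb10 passed in all 6 of these fits. Without control replicates 1 and 3 together, 1 control array was left, assumed to vary like the KO-labelled group, and the log2 fold change of Abca12 was 2.20. In a fit without moderation of the variance Abcb10 alone of the members passed, and the unmoderated limma adjusted p was 0.0630 for Abca12 and 0.0678 for Abcb6. Over all genes that fit called 1.37%, against 8.24% in the main fit.

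Abca12 had the largest change of the set. ABCA12 carries glucosylceramides into the lamellar granules of keratinocytes, and its loss causes harlequin ichthyosis in humans. Its log2 signal was 7.25, 7.33 and 7.24 on the KO-labelled arrays, against 4.97, 5.07 and 4.04 on the control arrays. The KO-labelled arrays lay close together, at a mean of 7.27 ± 0.05, and the controls were wider apart, at 4.69 ± 0.57 (SD, n = 3 each), with control replicate 3 the lowest. The gap between the lowest KO-labelled array and the highest control array was 2.17 log2 units. Abca12 rose 5.98-fold (log2 fold change 2.58, SE 0.25, limma adjusted p = 0.00196), with a 95% interval of 3.95-fold to 9.06-fold. Without control replicate 3 the log2 fold change was 2.25 and the limma adjusted p 0.00183.

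**Figure D2:**
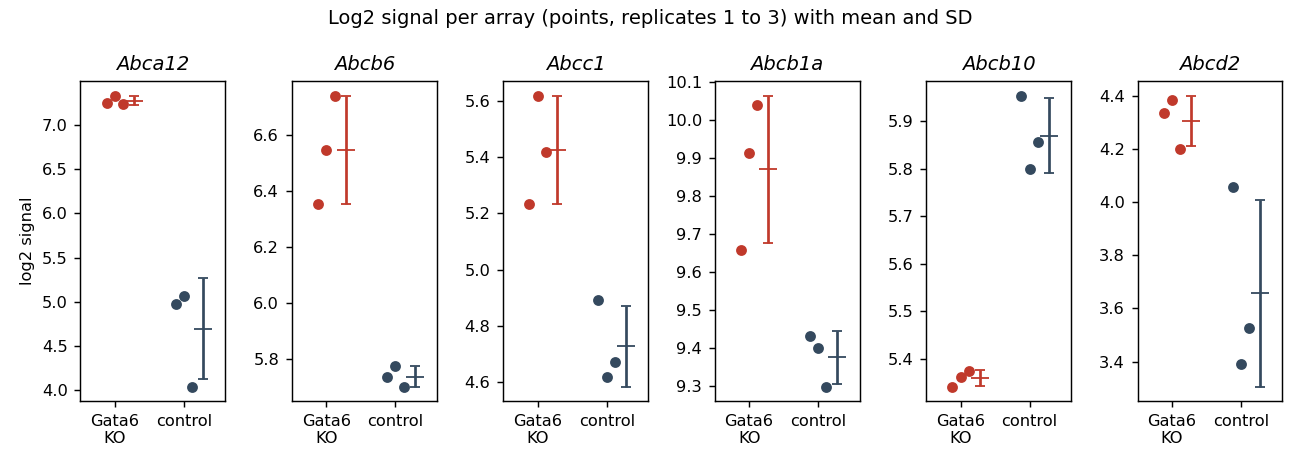
Log2 signal of 6 ABC genes on each array, 3 Gata6 KO arrays on the left and 3 control arrays on the right of each panel, with the mean and SD beside the points; each panel has its own vertical axis. The groups do not overlap in any of the panels, and the highest control value of Abcd2, 4.06, lies close to its lowest KO-labelled value, 4.20.

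Promoter sequence was available from RefSeq (GRCm38.p6) for 33 of the 42 genes. It was searched from 250 bases before to 50 bases after the start site on both strands for GATA factor motifs. These were the motif AGATAA, the motif AGATAG, the motif TGATAA and the motif TGATAG. At least 1 motif was found in 9 of 38 promoters of members, or 23.7%, against 29.8% of all 32851 promoters of the same length. Among the called genes with a promoter in the table, those of Abca12 and Abcb1a held 1 motif each and those of Abcb6 and Abcb10 held none in this window; Abcc1 had no entry. In Abca12 the motif AGATAA was on the opposite strand at positions 2 to 7 after the start site. In Abcb1a the motif TGATAG was also on the opposite strand, at positions 8 to 13. The sequences of these 4 genes are shown from 100 bases before to 30 bases after the start site, 5′ to 3′ on the strand of the gene, with the motif in capitals as it reads on that strand, so that promoters with and without it can be compared. They come from chr1:71414881-71415010 (minus strand) for Abca12, chr5:8566991-8567120 (plus strand) for Abcb1a, chr1:75180363-75180492 (minus strand) for Abcb6 and chr8:123983093-123983222 (minus strand) for Abcb10. A match describes the letters and shows no binding.
Abca12: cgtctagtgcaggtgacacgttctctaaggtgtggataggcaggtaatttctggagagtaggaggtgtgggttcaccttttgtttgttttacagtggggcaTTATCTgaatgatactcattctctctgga
Abcb1a: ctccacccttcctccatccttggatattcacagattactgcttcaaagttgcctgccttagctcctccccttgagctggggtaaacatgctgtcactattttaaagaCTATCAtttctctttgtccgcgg
Abcb6: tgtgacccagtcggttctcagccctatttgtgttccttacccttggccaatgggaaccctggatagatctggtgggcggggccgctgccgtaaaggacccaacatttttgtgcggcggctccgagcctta
Abcb10: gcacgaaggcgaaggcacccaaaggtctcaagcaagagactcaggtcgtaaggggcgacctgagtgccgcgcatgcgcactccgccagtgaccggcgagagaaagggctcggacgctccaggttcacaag

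Of the ABCA genes, 14 of 15 did not pass, with limma adjusted p of 0.131 to 0.974. The called share was 6.67%, beside 8.24% of all genes. Abca7, a phospholipid exporter, read 5.49, 5.58 and 5.43 on the KO-labelled arrays, against 5.20, 5.37 and 5.27 on the control arrays. Its groups did not overlap, and its log2 fold change was 0.22 (SE 0.08, limma adjusted p = 0.157). Abca3, the transporter that loads lung surfactant lipids into lamellar bodies, read 5.34, 5.76 and 5.71 on the KO-labelled arrays and 5.66, 5.66 and 5.27 on the control arrays. The groups of Abca3 overlapped throughout, and its log2 fold change of 0.08 (computed as 0.075, SE 0.15) was 0.14 without control replicate 1 and -0.0542 without control replicate 3. Abca2, known for lipid transport in the nervous system, had a log2 fold change of 0.15 (SE 0.11), or 0.07 without control replicate 3. The retinoid transporter of photoreceptors, Abca4, had group means of 1.97 and 2.08 in KO-labelled and control arrays, both below the array medians.

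Abca8b, Abca8a, Abca9, Abca6 and Abca5 stand side by side on chromosome 11 in the RefSeq table, and none passed. Abca8a read 5.08, 5.52 and 5.08 on the KO-labelled arrays, against 4.74, 5.12 and 4.57 on the control arrays, and the groups overlapped by 0.04 log2 units. Its log2 fold change was 0.42 (SE 0.18, limma adjusted p = 0.198), or 0.27 without KO-labelled replicate 2. Its near relative Abca8b read 2.59, 2.64 and 2.90 on the KO-labelled arrays, against 2.67, 2.86 and 2.77 on the control arrays, all below the array medians (log2 fold change -0.06, SE 0.11, limma adjusted p = 0.784; 0.03 after quantile normalization). Abca9 averaged 4.24 ± 0.23 and 4.01 ± 0.19 (SD, n = 3 each) in KO-labelled and control arrays, with a log2 fold change of 0.23, which was 0.13 without control replicate 3 and 0.36 without KO-labelled replicate 3. Abca5, a lysosomal transporter, had 0.20, or 0.10 without KO-labelled replicate 2. Abca6 was dim, at means of 1.77 in KO-labelled and 1.65 in control arrays. Fibroblast markers fixed for whole ileum lay higher on the same arrays. Of 9, 1, Dpt, passed (11.1% called, beside 8.24% of all genes), and all 9 had positive log2 fold changes. Their summed linear signal was 2500 to 3064 on KO-labelled and 1733 to 2366 on control arrays, with Pi16 below the array medians. The part of that difference in the values of Abca8a and Abca9 was not tested. In whole tissue, more cells of a type and more RNA per cell cannot be told apart.

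Abca14, Abca15 and Abca16, neighbours on chromosome 7 that are expressed mainly in testis, and Abca17 were all below the array medians. The log2 fold changes were -0.11 (SE 0.09) for Abca14, -0.01 (SE 0.14) for Abca15, -0.03 (SE 0.09) for Abca16 and -0.19 (SE 0.08) for Abca17, with limma adjusted p of 0.489, 0.974, 0.869 and 0.179. Those of Abca15 and Abca16 were 0.05 and 0.03 with each array centred on its median. Abca13, the largest member of the subfamily, read 1.15, 1.12 and 1.33 on the KO-labelled arrays, against 1.43, 1.44 and 1.45 on the control arrays, values at which no signal is shown (limma adjusted p = 0.131).

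**Figure D3:**
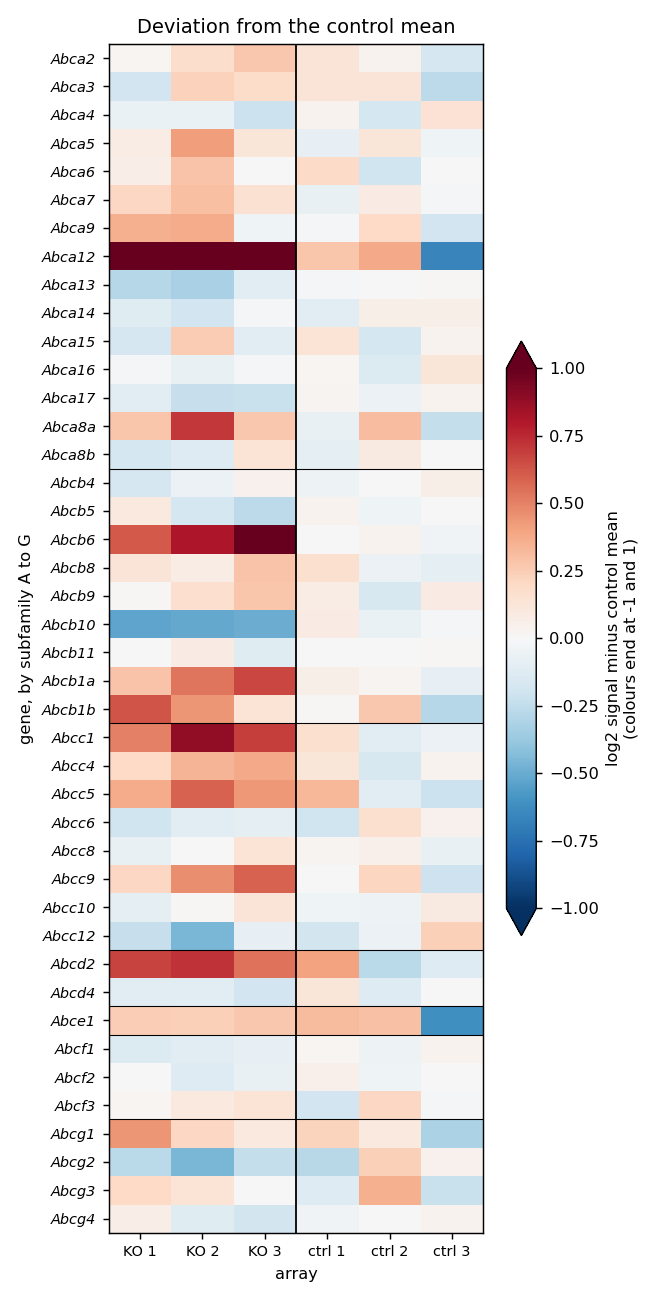
Log2 signal of each ABC gene on each array minus its control mean, with the 3 Gata6 KO arrays on the left and the 3 control arrays on the right; colours end at -1 and 1, which Abca12 exceeds on every KO-labelled array. Control replicate 3 stands below the other controls for Abca12 and Abce1, and control replicate 1 above them for Abcd2 and Abcc5.

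Of the 9 ABCB genes 2 rose and 1 fell, a called share of 33.3% beside 8.24% of all genes, though from few genes. Among the multidrug exporters of this subfamily, Abcb1a rose. Abcb1a encodes the P-glycoprotein of the mouse intestinal brush border, which pumps many drugs back into the lumen. It read 9.66, 9.91 and 10.04 on the KO-labelled arrays, against 9.43, 9.40 and 9.30 on the control arrays, and the groups were 0.23 log2 units apart. The increase was 1.41-fold, with a 95% interval of 1.18 to 1.69 (log2 fold change 0.50, computed as 0.495, SE 0.11, limma adjusted p = 0.0388). It passed only 1 of the 6 fits that left out an array: the limma adjusted p was 0.0268 without KO-labelled replicate 1, but 0.143 without KO-labelled replicate 2, 0.113 without replicate 3 of that group, and 0.0867, 0.0754 and 0.133 without control replicates 1, 2 and 3. The direction held in all 6, with log2 fold changes of 0.41 to 0.60.

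Abcb1b, the other rodent P-glycoprotein gene, and Abcb4 follow Abcb1a on chromosome 5. Abcb1b read 4.21, 4.02 and 3.71 on the KO-labelled arrays, against 3.58, 3.85 and 3.29 on the control arrays, with overlap between KO-labelled replicate 3 and control replicate 2. The difference was 0.40 log2 units (SE 0.17, limma adjusted p = 0.208), or 0.26 without control replicate 3, and did not pass, and how far its probe set also takes up Abcb1a transcripts is not known from these files. Abcb4, the phosphatidylcholine exporter of the liver canaliculus, averaged 1.84 and 1.90 in KO-labelled and control arrays. Abcb11, the bile salt export pump of the liver, averaged 1.15 in KO-labelled and 1.17 in control arrays. Abcb5, a multidrug transporter of pigment cells and corneal stem cells in humans and mice, averaged 1.78 in KO-labelled and 1.89 in control arrays, and its dimmer second probe set read 0.95 to 0.97 on all 6 arrays. These 3 genes lay below the array medians in both groups.

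Of the mitochondrial members of ABCB, Abcb6 rose and Abcb10 fell. Abcb6, a porphyrin transporter, read 6.36, 6.55 and 6.74 on the KO-labelled arrays, against 5.74, 5.78 and 5.70 on the control arrays. The SD was 0.19 over the KO-labelled arrays and 0.04 over the controls, and the groups were 0.58 log2 units apart. Abcb6 rose 1.75-fold, with a 95% interval of 1.47 to 2.09 (log2 fold change 0.81, SE 0.11, limma adjusted p = 0.00611). Abcb10, an inner membrane transporter needed for haem synthesis in mouse red cell precursors, read 5.34, 5.36 and 5.38 on the KO-labelled arrays, against 5.95, 5.80 and 5.86 on the control arrays. It fell 1.43-fold, by 0.51 on the log2 scale (SE 0.07, limma adjusted p = 0.00892), and its 95% interval on that scale ran from -0.69 to -0.34. In the fits without 1 array the limma adjusted p ran from 0.00981 to 0.0374 for Abcb6 and from 0.0196 to 0.0466 for Abcb10. Abcb8, also of the inner mitochondrial membrane, read 5.87, 5.82 and 6.03 on the KO-labelled arrays and 5.90, 5.69 and 5.64 on the control arrays (log2 fold change 0.16, SE 0.10). The lysosomal peptide transporter Abcb9 had a log2 fold change of 0.15 (SE 0.11).

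Haem and iron-sulfur cluster synthesis, in which these mitochondrial transporters take part, was represented by 19 measured genes. Of these, 1 rose, none fell and 18 did not pass, a called share of 5.26% beside the 8.24% of all genes, and their median log2 fold change was 0.08. Ppox, the enzyme that makes protoporphyrin, was the one that rose, by 0.52 (SE 0.10, limma adjusted p = 0.0221). At an unadjusted p under 0.05 the list held 6 genes, or 31.6%, beside 24.7% of all genes.

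In subfamily ABCC, Abcc1 rose and 7 of 8 genes did not pass, a called share of 12.5% beside 8.24% of all genes. Abcc1 is the basolateral exporter of glutathione conjugates and of leukotriene C4. It read 5.23, 5.62 and 5.42 on the KO-labelled arrays, against 4.89, 4.62 and 4.67 on the control arrays, with 0.34 log2 units between the groups. The increase was 1.62-fold, with a 95% interval of 1.33 to 1.98 (log2 fold change 0.70, SE 0.12, limma adjusted p = 0.0176). Its limma adjusted p was 0.0652 without KO-labelled replicate 2, 0.0674 without KO-labelled replicate 3, 0.0517 without control replicate 2 and 0.0767 without control replicate 3, and it passed without either of the other 2 arrays, with log2 fold changes of 0.60 to 0.79 over the 6 fits.

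Abcc4 and Abcc5 export cyclic nucleotides, and neither passed. Abcc4 read 5.02, 5.16 and 5.20 on the KO-labelled arrays, against 4.94, 4.66 and 4.85 on the control arrays (log2 fold change 0.31, SE 0.10, limma adjusted p = 0.111). Abcc5 read 4.39, 4.61 and 4.45 on the KO-labelled arrays, against 4.35, 3.91 and 3.80 on the control arrays. Its log2 fold change was 0.46 (SE 0.15, limma adjusted p = 0.112), and without control replicate 1, the control nearest the KO-labelled arrays, it was 0.63 with a limma adjusted p of 0.0248. Of 15 genes that make, degrade or bind cyclic nucleotides, 4 rose, none fell and 11 did not pass, a called share of 26.7% beside 8.24% of all genes, with a median log2 fold change of 0.26. Prkg2, the kinase activated by cyclic GMP in intestinal epithelium, rose by 1.10 (SE 0.16). The phosphodiesterases Pde3a and Pde8a rose by 0.50 each (SE 0.08 and 0.11), and the cyclase Adcy5 rose by 0.32 (SE 0.08). Adjusted p from limma was 0.00840 for Prkg2 and 0.0462 for Adcy5, the lowest and highest of the 4.

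Abcc8 and Abcc9 encode the sulfonylurea receptors, which regulate ATP-sensitive potassium channels rather than pump. Abcc9, the form of smooth muscle and pericytes, read 6.01, 6.27 and 6.40 on the KO-labelled arrays, against 5.80, 6.02 and 5.59 on the control arrays, with an overlap of 0.01 log2 units (log2 fold change 0.42, SE 0.14, limma adjusted p = 0.123). Its channel partner Kcnj8 read 5.32, 5.51 and 5.43 on the KO-labelled arrays and 5.25, 5.21 and 5.18 on the control arrays (log2 fold change 0.21, SE 0.08, limma adjusted p = 0.164). Abcc8, the form of pancreatic beta cells, averaged 3.16 and 3.14 in KO-labelled and control arrays, below the array medians, and its partner Kcnj11 had a log2 fold change of -0.21 (SE 0.17). Of 10 smooth muscle markers 1, Tagln, passed (10% called, beside 8.24% of all genes), and all 10 had positive log2 fold changes. Their summed linear signal was 3819 to 4820 on KO-labelled and 3263 to 3724 on control arrays. Of 6 pericyte markers 1, Rgs5, passed (16.7% called, beside 8.24% of all genes), and 3 of 6 log2 fold changes were positive. Their sum was 484.6 to 523.8 on KO-labelled and 387.4 to 426.5 on control arrays. That sum mostly follows Rgs5, the brightest, which rose by 0.49 (SE 0.09). Kcnj8 had 0.21, Pdgfrb 0.05, Cspg4 -0.01, Notch3 -0.16 and Higd1b -0.42, the last below the array medians, so the sum is not a shift of the whole list. The part of muscle and pericyte RNA in the value of Abcc9 was not tested.

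Among the remaining ABCC genes, Abcc6, which acts in liver and whose loss causes pseudoxanthoma elasticum in humans, had a log2 fold change of -0.14 (computed as -0.135, SE 0.11), which was -0.24 without control replicate 1 and -0.06 without control replicate 2. Abcc10, an exporter of lipophilic drugs, had 0.02 (SE 0.09), with a 95% interval of -0.19 to 0.22, and values of -0.0025 without control replicate 1 and 0.0635 without control replicate 3. Abcc12 was below the array medians in both groups, at means of 2.76 in KO-labelled and 3.02 in control arrays.

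Of the ABCD genes measured, neither passed. Abcd2 imports very long chain acyl-CoA into peroxisomes. It read 4.33, 4.38 and 4.20 on the KO-labelled arrays, against 4.06, 3.39 and 3.53 on the control arrays, and the groups were 0.14 log2 units apart (log2 fold change 0.65, SE 0.17, limma adjusted p = 0.0636). Without control replicate 1, the highest control, the log2 fold change was 0.85 and the limma adjusted p 0.00969. It also passed with each array centred on its median (0.0259), after quantile normalization (0.0480), among brighter genes alone (0.0340) and with a trended robust variance (0.0369). Abcd4, which releases cobalamin from lysosomes, read 5.24, 5.24 and 5.16 on the KO-labelled arrays and 5.48, 5.22 and 5.36 on the control arrays (log2 fold change -0.14, SE 0.09, limma adjusted p = 0.372; -0.08 without control replicate 1). No gene passed among 13 of peroxisome assembly and very long chain fatty acid oxidation, by limma, and 6, or 46.2%, had an unadjusted p under 0.05, beside 24.7% of all genes. Of 11 genes of cobalamin handling 3 fell, or 27.3% beside 3.25% of all genes, the carrier Tcn2 by 0.94 (SE 0.16) and the ileal receptor subunits Amn by 0.92 (SE 0.18) and Cubn by 2.20 (SE 0.45), with limma adjusted p of 0.0149 to 0.0305. This list, like the others, was chosen with earlier results of these data known.

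**Figure D4:**
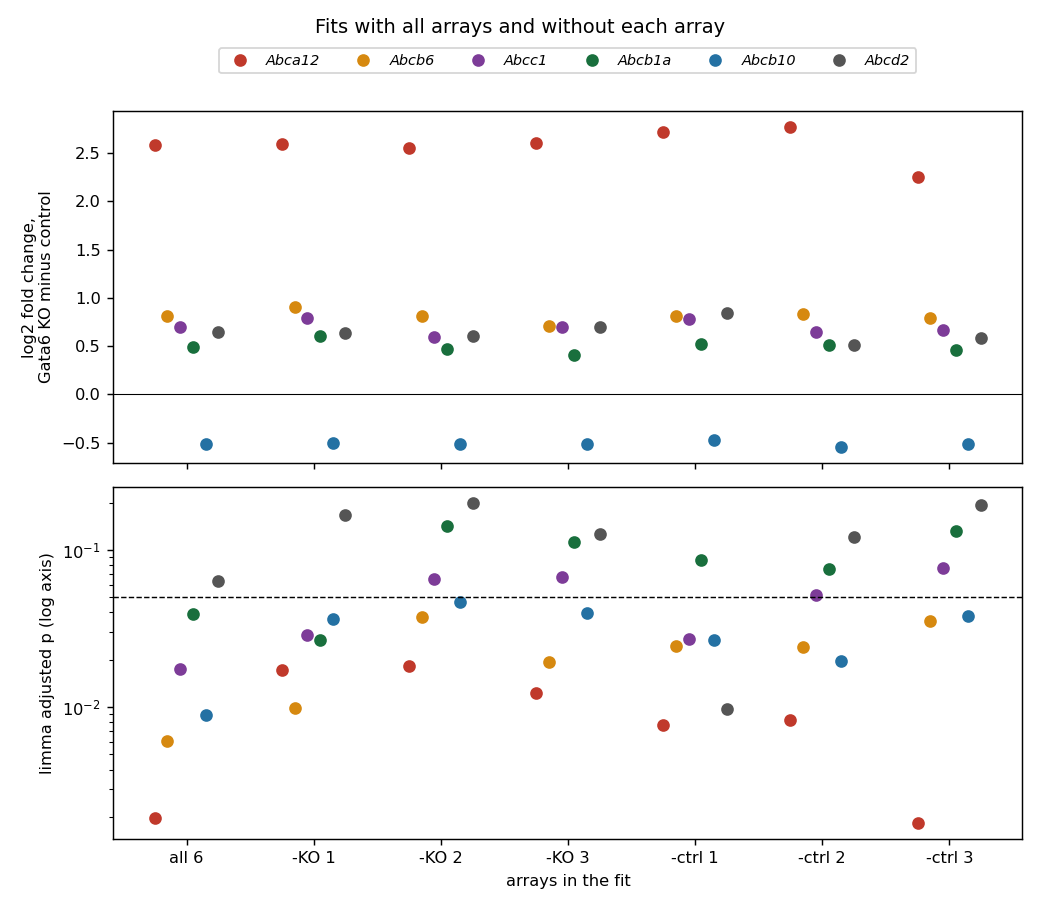
Log2 fold change (upper panel) and limma adjusted p on a log axis (lower panel) of 6 ABC genes, Gata6 KO minus control, with all 6 arrays and without each array; the dashed line is an adjusted p of 0.05. Abca12, Abcb6 and Abcb10 stay under the line in all 7 fits, while Abcc1, Abcb1a and Abcd2 cross it.

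The soluble members that act in translation gave no call. Abce1 splits ribosomes after termination. It read 7.40, 7.39 and 7.42 on the KO-labelled arrays, against 7.47, 7.45 and 6.54 on the control arrays, so control replicate 3 alone was low. The log2 fold change was 0.25 (SE 0.24, limma adjusted p = 0.563), and without control replicate 3 it was -0.05; without control replicate 1 it was 0.41. Abcf1, which acts in translation initiation, read 6.44, 6.46 and 6.50 on the KO-labelled arrays, against 6.59, 6.52 and 6.61 on the control arrays, groups that stood 0.02 log2 units apart (log2 fold change -0.11, SE 0.07, limma adjusted p = 0.388). Abcf2 and Abcf3 had log2 fold changes of -0.07 (SE 0.07) and 0.09 (SE 0.11), which were -0.05 and -0.01 without control replicate 1. The 95% intervals of the 3 ABCF genes together spanned -0.27 to 0.35. Among 13 genes of initiation and ribosome recycling none passed by limma, and 3, or 23.1%, had an unadjusted p under 0.05, beside 24.7% of all genes.

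No ABCG gene measured under the rule passed. Abcg2, the breast cancer resistance protein that returns urate, plant compounds and drugs to the lumen, read 8.51, 8.32 and 8.54 on the KO-labelled arrays, against 8.50, 9.02 and 8.82 on the control arrays. Control replicate 1 lay within the KO-labelled range (log2 fold change -0.32, SE 0.14, limma adjusted p = 0.207), and without it the value was -0.46; without control replicate 2 it was -0.20. Abcg1, which hands cholesterol to high density lipoprotein, read 5.33, 5.10 and 4.99 on the KO-labelled arrays and 5.12, 4.99 and 4.58 on the control arrays (log2 fold change 0.25, SE 0.16), and without control replicate 3, the lowest control, the log2 fold change was 0.09. Macrophages express Abcg1, and 8 macrophage and dendritic cell markers summed to 462.8 to 706.6 on KO-labelled and 394.6 to 613.2 on control arrays. None of the 8 passed by limma, and all 8 had positive log2 fold changes, with a median of 0.27. The part of macrophage RNA in the value of Abcg1 was not tested. Abcg4, a cholesterol exporter of brain, had a log2 fold change of -0.08 (SE 0.09). Abcg3, a rodent gene with no settled substrate, was below the array medians, with 0.11 (SE 0.16).

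The apical drug pumps Abcb1a and Abcg2 had log2 fold changes of 0.50 and -0.32, and the difference between them was not tested. Over the same arrays 6 of 11 enterocyte markers fell and none rose, and their summed linear signal was 4534 to 5352 on KO-labelled and 7782 to 9281 on control arrays, with Lct and Fabp1 below the array medians. Of 12 colon epithelium markers 5 rose and none fell, and 10 had positive log2 fold changes, with Hoxb13 and Fxyd4 below the array medians. Their sums were 8061 to 8663 on KO-labelled and 1334 to 3672 on control arrays. Linear sums follow the brightest genes, here above all Car1, which did not pass (limma adjusted p = 0.0722). Car1 read 12.14 to 12.20 on KO-labelled arrays, 10.96 on control replicate 1 and 5.68 and 6.87 on the other controls. Tuft cell markers summed to 88.98 to 104.0 on KO-labelled and 62.99 to 78.09 on control arrays, with 3 of 6 higher and Pou2f3 below the medians, and all 6 Paneth cell markers measured fell, with sums of 822.1 to 1970 on KO-labelled and 5384 to 6404 on control arrays. Of enteroendocrine markers 5 of 8 fell, among them Neurod1, which lay below the array medians in both groups. Of goblet cell markers 2 of 6 rose and 1 fell, and of interstitial cell of Cajal markers 2 of 4 rose. The shares that fell were 54.5% of enterocyte, 100% of Paneth cell, 62.5% of enteroendocrine and 16.7% of goblet cell markers, beside 3.25% of all genes. The shares that rose were 41.7% of colon, 50% of tuft cell, 33.3% of goblet cell and 50% of interstitial cell markers, beside 4.99% of all genes. No marker passed by limma in the lists for endothelium, neurons and glia, T cells, B cells, macrophages, mast cells or adipocytes, where 0, 2, 1, 0, 0, 0 and 2 genes had an unadjusted p under 0.05. That was 28.6% of the neuron and glia list, 14.3% of the T cell list and 33.3% of the adipocyte list, beside 24.7% of all genes. In the mast cell and granulocyte list 7 of 8 markers lay below the array medians in both groups. So did Elavl4, Gfap and S100b of the neuron and glia list, Cd3d of the T cell list and Ms4a1 of the B cell list. At such levels the absence of a call does not show that these cells were unchanged. Of the 6 adipocyte markers 5 had positive log2 fold changes, with a median of 0.64 and sums of 264.4 to 315.4 on KO-labelled and 119.6 to 278.0 on control arrays, and Lep lay below the array medians. The part of these shifts in the calls of Abca12, Abcb1a, Abcb6, Abcc1 and Abcb10 was not tested.

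Of the family members outside the rule, the sterol exporter subunits Abcg5 and Abcg8 fell by 2.28 (SE 0.20) and 2.25 (SE 0.19). Abcc2 fell by 2.94 (SE 0.24) and Abcc3 rose by 0.87 (SE 0.08), while Abca1 and Abcd3 had log2 fold changes of 0.35 (SE 0.18) and 0.30 (SE 0.11). The antigen peptide transporter subunits Tap1 and Tap2 had -0.49 (SE 0.22) and 0.00 (computed as -0.004, SE 0.09), and the chloride channel Cftr had -0.18 (SE 0.16), none of which passed.

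Lists of genes that regulate these transporters or share their substrates were counted too. Of 13 nuclear receptors and stress factors that sense xenobiotics and lipids, 2 rose, 2 fell and 9 did not pass. Pparg, a lipid-activated receptor, rose by 1.99 (SE 0.18, limma adjusted p = 0.00144), and Nfe2l2, the factor that induces conjugate exporters under oxidative stress, rose by 0.60 (SE 0.12). Nr1h3, the oxysterol receptor LXR alpha, fell by 0.89 (SE 0.15), and Nr1i3 fell by 0.52 (SE 0.10) at levels below the array medians. Of 9 lipid acceptor and lipoprotein assembly genes 2 rose and 1 fell. Smpd1, the acid sphingomyelinase, rose by 0.55 (SE 0.11) and Apoe by 0.47 (SE 0.11), while Apoa1 fell by 3.78 (SE 0.41), the largest change of the list. Among 13 nucleotide, conjugate and urate transporters outside the family 2 rose and none was called lower. Slc17a4, a urate exporter in humans, rose by 0.99 (SE 0.15), and Slco2a1, a prostaglandin carrier, by 0.46 (SE 0.10). The list did not shift upward as a whole: 9 of the 13 log2 fold changes were negative, with a median of -0.09. At an unadjusted limma p under 0.05 it held 3 higher and 3 lower genes. In the last 3 lists the called shares were 30.8%, 33.3% and 15.4%, beside 8.24% of all genes, and these lists were chosen with earlier results of these data known.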

How the data were processed

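RNA of whole ileum from 3 Gata6 KO-labelled and 3 control mice was measured with 1 array per mouse, and replicates are separate mice per the labels. The deposited values are 1 log2 signal for each probe set. The submitters' processing notes name Affymetrix Expression Console; how background, normalization and probe summary were done is not stated there. Log2 was taken as the scale because values ran from -0.47 to 12.73. Of 35557 probe sets, 21789 carried 1 symbol, 1621 several and 12147 were not listed. Per gene the probe set brightest over the 6 arrays was used, with no filter on dim genes. All 42 members matched the RefSeq table of GRCm38.p6, used for names, order and promoters. limma 3.58.1 in R 4.3.3 fitted Gata6 KO minus control over 19938 genes (lmFit, eBayes, two-sided, Benjamini-Hochberg, threshold 0.05); the procedure was tested on simulated arrays. SE is the moderated one. Alternatives varied scaling, filter, probe set, variance, weights, block and arrays left out. Full statistics were given for members that passed, changed by at least 0.5, were the brightest of a subfamily or had close paralogs. The members and lists were chosen with earlier results of these data known. Partner genes were named where they passed, up to 4 a list, or where 1 defines a list. Marker lists were given by counts and sums; markers below the array medians were named after their values were seen. Proteins were not used. Figures used matplotlib 3.10.9.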

Additional observations from a re-analysis of the deposited data

How the results depend on the processing

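The number of arrays limits every value, and dim members have no order among themselves. With 4 members higher and 1 lower as reported, leaving out 1 array gave 2 to 5 higher and 1 lower each time. Those fits called 2.99% to 7.04% of all genes, against 8.24% with all 6 arrays. Without moderation of the variance 0 members were higher by limma's unmoderated fit (7 at an unadjusted p under 0.05), and 1 was lower, Abcb10, where 1.37% of all genes were called. Without control replicates 1 and 3 together 1 was higher and 0 were lower (3 lower at an unadjusted p under 0.05), where the fit has fewer samples. With the replicate number as a block 3 were higher and 1 lower, Abcb1a losing its call (limma adjusted p = 0.0752). The labels do not state whether the numbers pair mice. Deviations of same-numbered arrays correlated at 0.04, -0.04 and 0.15, and those of differently numbered arrays at -0.12 to 0.08. Deviations from means of 3 arrays depend on each other, so these values cannot decide it. The direction of Abca12, Abcb6, Abcc1, Abcb1a and Abcb10 held in all 15 alternatives. Centring arrays moved the calls over all genes to 1562 higher and 565 lower, against 995 and 648.

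Members that passed nowhere turned direction as follows, and the cause was not tested. With arrays centred, Abca15, Abca16 and Abcb11 had log2 fold changes of 0.0467, 0.0267 and 0.042. After quantile normalization Abca15, Abca16, Abca8b, Abcb11, Abcb4 and Abcc10 had 0.0676, 0.0229, 0.0321, 0.0418, 0.0239 and -0.0079. Without control replicates 1 and 3 together Abca15, Abca16, Abca3, Abca4, Abcc8, Abce1, Abcf3 and Abcg3 had 0.16, 0.11, -0.0577, 0.0633, -0.028, -0.0403, -0.12 and -0.24. Leaving out 1 array gave -0.14 to 0.0688 for Abca15, -0.10 to 0.0292 for Abca16, -0.0542 to 0.21 for Abca3, -0.15 to 0.0025 for Abca8b, -0.065 to 0.04 for Abcb11, -0.0368 to 0.0707 for Abcc10, -0.0362 to 0.0668 for Abcc8, -0.0533 to 0.41 for Abce1 and -0.0103 to 0.19 for Abcf3.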
